A study of Mus musculus with 3 samples.

Results

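The insulin-like growth factor (IGF) family was examined in mouse kidney cells sorted for a renin reporter. It was taken by gene symbol as the ligands Igf1 and Igf2, the receptors Igf1r and Igf2r, and the binding proteins Igfbp2, Igfbp3, Igfbp4, Igfbp5, Igfbp6 and Igfbp7. All 10 symbols were measured, each by exactly 1 probe set, among 19938 genes on the array. The samples were YFP-positive cells of adult male Ren1c-YFP transgenic mice of unspecified strain, in which a renin gene construct drives yellow fluorescent protein (YFP). For 2 weeks all mice had eaten low-salt chow and drunk water with 0.5 mg/ml captopril, which blocks angiotensin-converting enzyme. The kidney cortex was digested with collagenase, sieved and sorted for YFP, and total RNA amplified in 1 round was hybridised to 1 single-colour array for each of 3 samples, labelled replicates 2, 4 and 5. There was 1 group and no untreated, YFP-negative or unsorted sample was analysed here, so the values are levels in the sorted samples and not effects of captopril, salt or the sort. The labels call the samples unpooled but name no separate animals, so the differences among these 3 samples may be technical. Each p-value reflects only those differences, with the variance of each gene moderated by that of other genes.

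IGF1 and IGF2 are secreted growth factors that act mainly through the receptor tyrosine kinase IGF1R. IGF2R carries no kinase: it binds IGF2 and lysosomal enzymes tagged with mannose 6-phosphate, and takes them to lysosomes. The binding proteins hold the ligands in blood and in the matrix and so limit or prolong their access to receptors, and several of them also bind cells or matrix directly. In the kidney, growth hormone and local IGF1 are known to influence glomerular and tubular growth, and Igfbp5 and Igfbp7 are known in stromal and vascular cells.

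The 10 genes fell into 3 tiers against background. Igfbp7 and Igfbp5 stood several log2 units above it, Igf1r, Igf2r, Igf1, Igfbp3 and Igfbp4 were called above it by smaller margins, and Igf2, Igfbp2 and Igfbp6 were not called. Values are the deposited signals, read as log2. The background level of each array was the 95th percentile of its signals over 1027 olfactory receptor genes, and was 6.20, 6.32 and 6.50 in replicates 2, 4 and 5. The height of a gene is its mean signal minus this level. It was tested with limma, one-sided, and p was adjusted over all genes by Benjamini-Hochberg with 0.05 as the threshold. By this rule 7 of 10 members were called, beside 37.3% of all 19938 genes, and the median height was 1.44 in the family and -0.01 over all genes. With each array's level set by the 99th percentile in place of the 95th, 4 members were called beside 16.6% of all genes, and with a level from keratin-associated protein genes 2 were, beside 3.56%. Probe affinity also sets a signal, so heights are read against background and do not rank the transcripts by abundance.

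**Figure D1:**
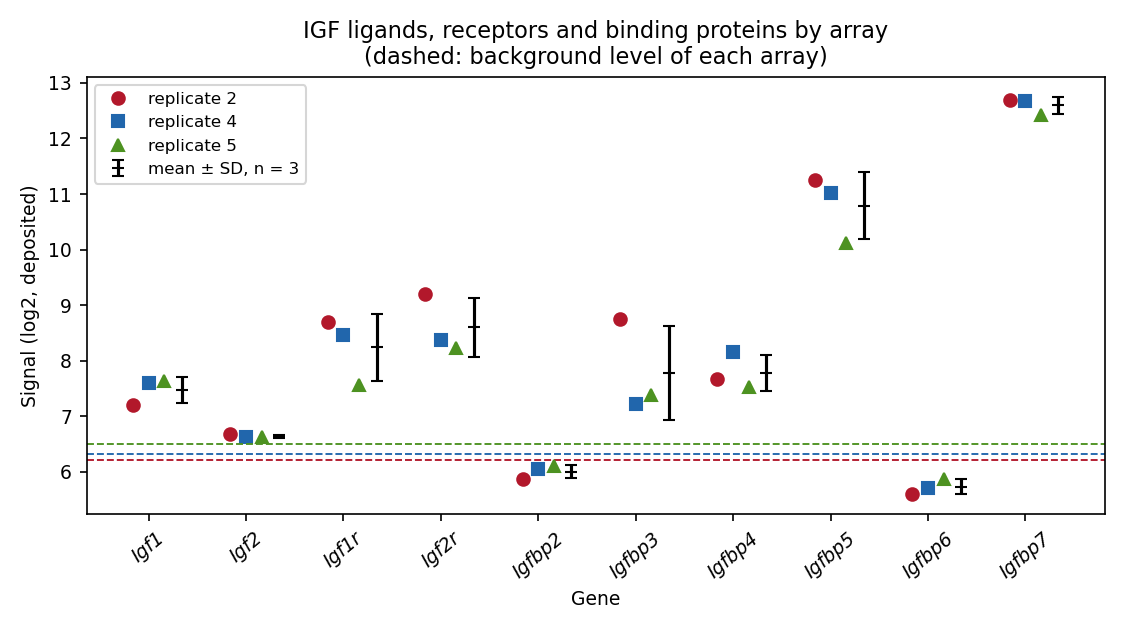
Deposited log2 signal (vertical axis) of each of the 10 genes (horizontal axis) on the arrays of replicates 2, 4 and 5, with the mean ± SD of the 3 arrays and a dashed line at the background level of each array. Igfbp7 and Igfbp5 lie far above the dashed lines on every array, Igf2 lies just above them, and Igfbp2 and Igfbp6 lie under them on all 3.

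Promoters are shown for Igfbp7 and Igfbp5, the members furthest above background, and for Igfbp2, the chromosomal neighbour of Igfbp5 that was not called. RefSeq (GRCm38.p6) gives windows from 250 bases before to 50 after a transcript start for all 10 members, 14 windows in all, and each is printed from 5′ to 3′ along the gene's strand. The Igfbp7 window is chr5:77407996-77408295 on the minus strand, the Igfbp5 window chr1:72874816-72875115 on the minus strand, and the Igfbp2 window chr1:72824230-72824529 on the plus strand, the first of 2 for that gene. Capitals mark matches, on either strand, to any of 5 searched motifs.
Igfbp7: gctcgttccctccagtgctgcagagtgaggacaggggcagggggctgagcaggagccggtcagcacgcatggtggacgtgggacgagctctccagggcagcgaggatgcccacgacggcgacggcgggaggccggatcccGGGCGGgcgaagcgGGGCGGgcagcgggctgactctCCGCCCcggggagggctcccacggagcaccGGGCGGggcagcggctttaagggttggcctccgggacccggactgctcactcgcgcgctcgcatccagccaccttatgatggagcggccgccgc
Igfbp5: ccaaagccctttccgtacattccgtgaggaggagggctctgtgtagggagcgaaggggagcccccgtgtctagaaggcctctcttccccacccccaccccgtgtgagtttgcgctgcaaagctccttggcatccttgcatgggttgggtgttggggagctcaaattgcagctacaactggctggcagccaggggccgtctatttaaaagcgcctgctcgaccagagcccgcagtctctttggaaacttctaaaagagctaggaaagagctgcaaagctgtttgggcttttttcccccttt
Igfbp2: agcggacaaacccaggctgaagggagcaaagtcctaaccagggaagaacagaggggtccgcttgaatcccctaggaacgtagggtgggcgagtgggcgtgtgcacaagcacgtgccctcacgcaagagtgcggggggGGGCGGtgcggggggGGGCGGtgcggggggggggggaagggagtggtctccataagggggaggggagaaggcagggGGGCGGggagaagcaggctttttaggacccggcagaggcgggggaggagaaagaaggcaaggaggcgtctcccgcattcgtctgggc
The motifs were the GC box GGGCGG, the TATA box TATAAA, the RBPJ motif TGGGAA, the cAMP response element TGACGTCA and the CArG box of smooth muscle genes. RBPJ and cAMP were included because Notch and cAMP signalling are known to control renin cells. Every capital above is a GC box: the Igfbp7 window holds 4, the Igfbp2 window 3 and the Igfbp5 window none. No motif matches overlapped one another in these 3 windows. The GC box was found in 35.7% of all 32851 promoter windows and in at least 1 window of 5 members. TGGGAA was found in 25.6% of all windows and for 3 members, TATAAA in 13.6% and for 2 members, the CArG box in 1.63% and for 1 member, and TGACGTCA in 1.79% and for 0 members. The Igfbp7 window is 73.3% G and C with 33 CpG dinucleotides, the Igfbp5 window 56.3% with 10 and the Igfbp2 window 67.0% with 18, where the median over all windows is 52.7% and 7. The motif shares are per window and the member counts per gene, so the 2 are unlike measures. A gene with several windows, as Igf2 with 4 and Igfbp2 with 2, had more chances of a match. A match describes the letters of the window and not binding.

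Of the ligands, Igf1 was called and Igf2 was not. Igf1 encodes the growth factor whose liver output growth hormone controls and which many tissues also make locally. Its signals were 7.20, 7.59 and 7.62 in replicates 2, 4 and 5, all above the level of their array, with replicate 2 the lowest. The height was 1.13 ± 0.19 (moderated SE of limma, n = 3 here and below, limma adjusted p = 0.000982). Igf2 encodes the fetal growth factor, an imprinted gene that lies beside the insulin gene Ins2. Its signals were 6.67, 6.62 and 6.62, a range of 0.05, and each array was above its own level by 0.47, 0.30 and 0.11. The height of Igf2 was 0.29 ± 0.15 and missed the threshold (limma adjusted p = 0.114, unadjusted p = 0.0461). Igf2 was called when only genes over the median signal were tested (limma adjusted p = 0.0494), where 81% of the genes tested passed, and with a vomeronasal receptor level (limma adjusted p = 9.84e-05), where 65.9% did, and its adjusted p ran from 9.84e-05 to 1 over the alternatives.

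Both receptors were called. Igf1r, the kinase that signals for both ligands, had signals of 8.70, 8.46 and 7.56 in replicates 2, 4 and 5, so that replicate 5 was the low array. Its height was 1.90 ± 0.31 (limma adjusted p = 0.000751). Igf2r, the mannose 6-phosphate receptor that clears IGF2, had signals of 9.21, 8.37 and 8.22, with replicate 2 the high array and the others close together. Its height was 2.26 ± 0.30 (limma adjusted p = 0.000254). Igf1r and Igf2r remained called at the 99th percentile level (limma adjusted p = 0.0358 and 0.00744), and neither was called with the keratin-associated protein level.

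Igfbp7 and Igfbp5 had the greatest heights of the binding proteins. Igfbp7 encodes a secreted protein of the vessel wall and basement membrane that binds IGFs weakly and insulin. Its signals were 12.70, 12.68 and 12.42, a narrow range of 0.27, and its height was 6.26 ± 0.18 (limma adjusted p = 9.41e-08). Igfbp5 encodes a matrix-bound binding protein and also serves as a mesangial marker. Its signals were 11.25, 11.02 and 10.11, with replicate 5 the low array, 1.13 under replicate 2. The height of Igfbp5 was 4.45 ± 0.30 (limma adjusted p = 7.21e-06). Igfbp7 and Igfbp5 were called under all 11 alternatives, with heights of 3.93 to 7.09 and 2.12 to 5.28.

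Igfbp3 and Igfbp4 were both called, and their arrays differed in different ways. Igfbp3 encodes the main carrier of IGFs in blood, which endothelial cells of the kidney are known to make. Its signals were 8.74, 7.22 and 7.37, so that replicate 2 stood 1.45 above the mean of the other arrays. The height of Igfbp3 was 1.44 ± 0.34 (limma adjusted p = 0.00547), and without replicate 2 it was 0.88 (limma adjusted p = 0.0163). Igfbp4 encodes an inhibitory binding protein that the protease pappalysin cleaves. Its signals were 7.68, 8.15 and 7.52, with replicate 4 the highest, and its height was 1.44 ± 0.23 (limma adjusted p = 0.00077). At the 99th percentile level Igfbp3, Igfbp4 and Igf1 were not called (limma adjusted p = 0.301, 0.108 and 0.42).

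Igfbp2 and Igfbp6 had signals under the level on every array. Igfbp2, a binding protein prominent in the fetus and in serum, had signals of 5.87, 6.04 and 6.09 and a height of -0.34 ± 0.12 (limma adjusted p = 1). Igfbp6, which prefers IGF2 as ligand, had signals of 5.60, 5.71 and 5.87 and a height of -0.62 ± 0.11 (limma adjusted p = 1). The signals of both genes were lowest in replicate 2 and highest in replicate 5, as were the background levels, and the heights of Igfbp6 on the 3 arrays were -0.60, -0.61 and -0.64. These values bound the signal at background and do not show that the transcripts were absent.

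The binding protein genes include a pair of neighbouring genes on chromosome 1 and another on chromosome 11, and in each pair 1 gene was called and the other was not. In RefSeq (GRCm38.p6) Igfbp2 and Igfbp5 are adjacent among protein-coding genes of chromosome 1, on opposite strands. Igfbp5 was called at a height of 4.45 and Igfbp2 was not at -0.34. On chromosome 11 Igfbp1 and Igfbp3 are likewise adjacent and on opposite strands. Igfbp3 was called, and Igfbp1, a binding protein made chiefly by the liver, had signals of 6.39, 6.35 and 6.38 and a height of 0.03 ± 0.14 (limma adjusted p = 0.843). Igf2 and Ins2 are adjacent on chromosome 7 and neither was called. Each call is against background, and the difference between neighbours was not tested because the signals of different probe sets do not share a scale.

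Of the 7 called members, 4 varied between arrays more than at least 85.6% of called genes did. By the range from the lowest to the highest array, Igfbp3 exceeded 97.5% of called genes, Igf1r 91.0%, Igfbp5 90.9% and Igf2r 85.6%, while Igfbp4 exceeded 62.0%, Igf1 39.3% and Igfbp7 19.9%. The median SD over the 7 called members was 0.53 log2 units, where the median over all 7437 called genes was 0.27. The highest and lowest arrays were over 1 log2 unit apart for 3 of the 7, Igfbp3 (1.53), Igf1r (1.14) and Igfbp5 (1.13), beside 13.7% of all called genes. Replicate 2 was the highest array for 5 of the 7, beside 43.8% of called genes, and replicate 5 the lowest for 5 of the 7, beside 52.8%. With 1 array a sample these differences have no test.

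The arrays also differed in markers of other cell types, which moved beside some members. Of 12 endothelial markers 7 were called (58.3%, beside 37.3% of all genes), and none lay under the level on all 3 arrays. Over the called ones the median difference of replicate 2 from the mean of the others was 1.67 log2 units. Those calls rested partly on replicate 2 itself, since 4 of the 7 were lost without it. Over all 12 markers the median signals were 7.17, 6.82 and 6.72 in replicates 2, 4 and 5. The summed log2 signal of all 12 was 94.1 in replicate 2, 84.2 in replicate 4 and 83.6 in replicate 5. Pecam1 and Cdh5 are given as examples chosen after their values were seen. Pecam1, an endothelial adhesion molecule, had signals of 9.03, 6.87 and 6.79, and Cdh5, endothelial cadherin, had 8.70, 7.08 and 6.59. Tek, not called (6.41, 7.11 and 6.63), and Ehd3, called (6.57, 6.73 and 6.84), were instead lowest in replicate 2. Of the 7 called markers 6 were highest in replicate 2. Igfbp3 and Igf2r were highest in replicate 2 as well, and the part of endothelial RNA in their values was not tested. Some other lists were also higher in replicate 2, by less. The median difference was 0.33 over called proximal tubule, 0.32 over mural and renin cell and 0.29 over mesangial markers, beside 0.12 over all called genes. It was 0.04 for the thick ascending limb, -0.35 for the distal convoluted and connecting tubule, -0.62 for intercalated and -0.64 for principal cells. The part of these cells was not tested either. Without replicate 2, Igfbp3 and Igf2r remained called, as did 3 of the 7 called endothelial markers, while 4 did not, Pecam1 and Cdh5 among them (limma adjusted p = 0.12 and 0.162). In that fit 30.3% of all genes were called.

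Igf1r and Igfbp5 were low in replicate 5, by 1.02 below the mean of the other arrays in each case. Markers of 2 of 5 tubule and collecting duct lists were also low there: the median difference was -0.71 over 10 called proximal tubule markers and -0.96 over 5 called markers of the thick ascending limb. Their summed log2 signals in replicates 2, 4 and 5 were 107.2, 106.7 and 100.02 over 10 proximal tubule markers, all called, and 60.6, 62.6 and 56.9 over 6 thick ascending limb markers. The other 3 lists were not low in replicate 5: the median difference was 0.26 over 4 called markers of the distal convoluted and connecting tubule, -0.01 over 6 called principal cell markers and 0.33 over 6 called intercalated cell markers. Their summed log2 signals in replicates 2, 4 and 5, over 6 markers each, were 47.6, 48.6 and 49.1, then 44.5, 49.8 and 47.0, then 45.5, 48.9 and 49.0. Mural and renin cell markers, of which 10 of 10 measured were called, differed less in replicate 5 (median difference 0.04, summed log2 signals 105.2, 101.9 and 103.1), as did 6 of 6 called mesangial markers (-0.02, summed log2 signals 49.0, 47.2 and 47.7). Of the markers in these 7 lists, 2 of the distal convoluted and connecting tubule lay under the level on all 3 arrays and the others did not. Median heights were taken over all measured markers of a list. They were 4.56 for proximal tubule, 3.95 for thick ascending limb and 4.30 for mural and renin cell markers. For mesangial markers the median height was 1.67, and over the other 3 tubule and collecting duct lists it ran from 0.93 to 1.78. The part of any of these cells in the values of Igf1r and Igfbp5, or in the heights of other members and pathway genes, was not tested. In such bulk samples fewer cells of a type and less RNA per cell cannot be told apart. Renin's own gene Ren1 and Akr1b7 were not analysed here. Of measured podocyte and lymphocyte markers 0 of 5 in each list were called by limma, beside 37.3% of all genes. At an unadjusted p under 0.05 the count was 0 in either list, beside 40.6% of all genes. Of 8 fibroblast markers 4 were called (50%, beside 37.3%), and 4 lay under the level on all 3 arrays. Of 6 macrophage markers 1 was called (16.7%), Tyrobp, and it lost its call on leaving out any 1 replicate.

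**Figure D2:**
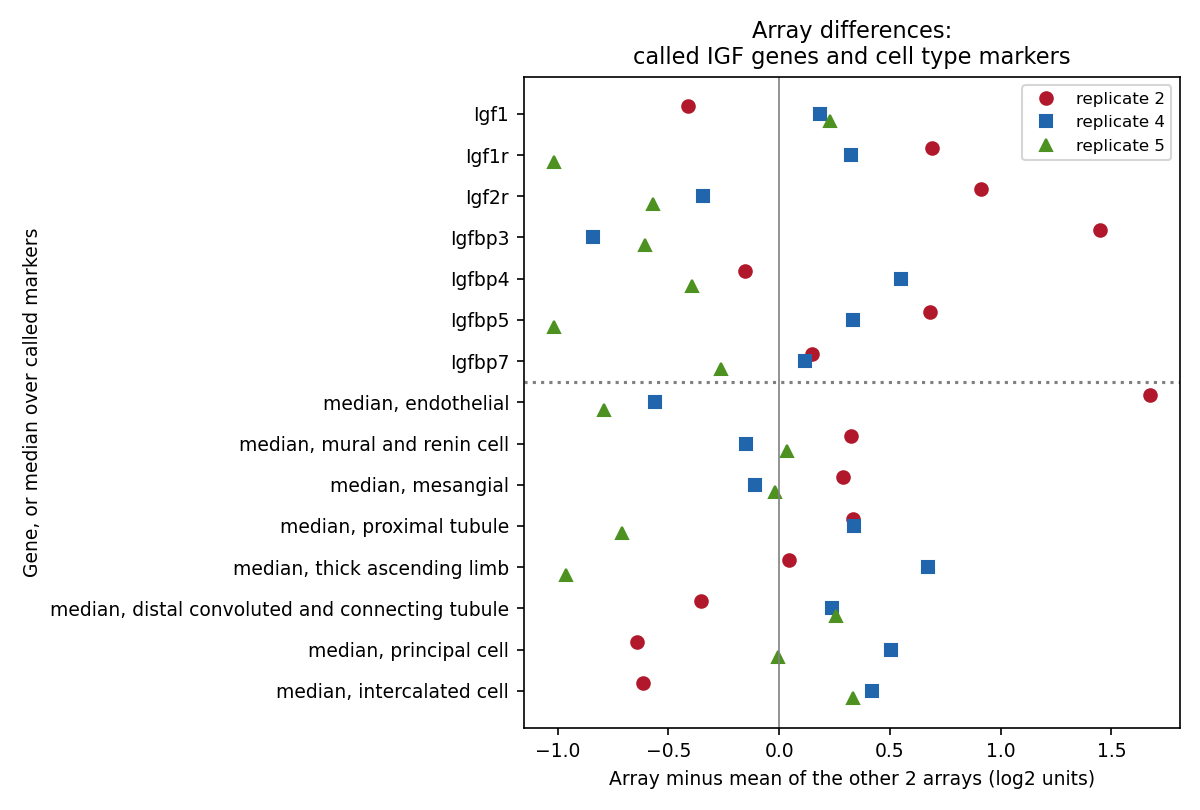
Difference of each array from the mean of the other 2 arrays, in log2 units (horizontal axis), for the 7 called IGF genes and, under the dotted line, as medians over the called markers of 8 cell type lists. Replicate 2 is far to the right for Igfbp3 (1.45) and the endothelial median (1.67), and replicate 5 is far to the left for Igf1r and Igfbp5 (-1.02 each) and for the medians of the proximal tubule (-0.71) and thick ascending limb (-0.96), and not for those of the other tubule and collecting duct lists. The endothelial median is over 7 called markers, of which 4 lost their call without replicate 2.

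The wider pathway was described by 11 lists with 112 different genes, of which 100 were measured and 60 were called (60.0%), beside 37.3% of all genes. The median height over these 100 genes was 0.75. Without replicate 2 the same test called 48 of those 60 genes (30.3% of all genes), without replicate 4 it called 52 (32.1%) and without replicate 5 all 60 (39.2%). At the 99th percentile level 27 of the 100 pathway genes were called, beside 16.6% of all genes. With the keratin-associated protein level 3 of 100 were, beside 3.56%, so that the share over the lists did not exceed that over all genes there. The reported count of each list below is to be read beside the 37.3% of all genes called.

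Among insulin family genes and other IGF carriers, 1 of 5 measured was called (20%, beside 37.3% of all genes). Insr, the insulin receptor, which can pair with IGF1R in hybrid receptors, had signals of 11.09, 11.04 and 10.83 and a height of 4.64 ± 0.23 (limma adjusted p = 1.1e-06). A second probe set of Insr had a height of 2.02. Insrr, the insulin receptor-related receptor (-0.24), and the insulin gene Ins2 (-0.42) had heights under 0. Igfals encodes the subunit that carries IGF1 and IGFBP3 as a complex in blood. It was not among the genes named by rule, was chosen after its values were seen, and had a height of 0.05 (limma adjusted p = 0.786). Both IGF2 mRNA-binding protein genes measured, Igf2bp1 (-0.55) and Igf2bp3 (-1.03), had mean signals under the level, and 0 of 2 passed limma at an unadjusted p under 0.05.

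Relatives that share the IGF-binding fold were called in 6 of 12 cases (50%, beside 37.3% of all genes). The matricellular genes Ccn1 (signals 10.54, 8.94 and 9.41) and Ccn2 (8.90, 8.06 and 8.44) had heights of 3.29 and 2.12, and Ccn5 one of 0.90. Crim1, a transmembrane protein that binds bone morphogenetic proteins, had a height of 3.28. Esm1, an endothelial proteoglycan, had signals of 8.65, 7.27 and 7.64 and a height of 1.51. Of the 6 called relatives 5 were highest in replicate 2, beside 43.8% of all called genes. Of the 7 called endothelial markers 6 were also highest there, and the part of endothelial cells in the relatives was not tested. Ccn4 (-0.89), Ccn6 (-0.87) and Ccn3 (-0.71) lay under the level on all 3 arrays.

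Proteases that cleave the binding proteins, with the inhibitors of those proteases, were called in 5 of 12 cases. This share, 41.7%, was close to the 37.3% of all genes. Ctsd, the lysosomal protease cathepsin D, had a height of 4.09, Htra1, a secreted serine protease that itself carries an IGF-binding fold, one of 2.36, and Adam9 one of 1.95. Stc1, stanniocalcin, which inhibits pappalysins, had signals of 7.91, 7.35 and 6.43 and a height of 0.89. Mmp2, a matrix metalloproteinase, had signals of 7.35, 6.70 and 6.89 and a height of 0.64. Stc1 and Mmp2 were not called without replicate 2 (limma adjusted p = 0.199 and 0.133), where the heights were 0.48 and 0.39. The list's count was then 3 of 12, beside 30.3% of all genes. Adam28 (-1.43), Mmp3 (-1.11) and Adam12 (-0.98) lay under the level. Pappa and Pappa2, the pappalysins of this list, were chosen for mention after their values were seen. Pappa had signals of 6.11, 7.27 and 6.05, above the level of its array only in replicate 4, and a height of 0.14 (limma adjusted p = 0.633). Pappa2 had signals of 6.58, 6.69 and 5.55 and a height of -0.07 (limma adjusted p = 1).

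Cell surface and matrix partners of the binding proteins were called in 9 of 12 cases. Itgb1, the integrin chain shared by many matrix receptors, had a height of 4.99, Fn1, fibronectin, one of 3.59, and Itgav one of 3.36. Cd93, an endothelial receptor that binds IGFBP7, had signals of 9.28, 7.95 and 8.10 and a height of 2.10, again with replicate 2 the highest. Tmem219, a receptor for IGFBP3, had signals of 8.36, 7.95 and 8.17 and a height of 1.82, and Thbs1, thrombospondin, a height of 1.71. Vtn, vitronectin (-0.42), and Itgb3 (-0.41) lay under the level, and Itga5 had a height of 0.05. Genes of mannose 6-phosphate sorting, which act with Igf2r, were called in 5 of 7 measured cases. Gnptg and Gnptab, subunits of the enzyme that starts the tag, had heights of 2.23 and 1.40. The Golgi adaptors Gga3, Gga2 and Gga1 had heights of 1.86, 1.01 and 0.64, and Gga1 lost its call on leaving out replicate 2 or 4 (limma adjusted p = 0.0972 and 0.0788). Nagpa (-0.10) and Plaur (-0.81), the urokinase receptor and a ligand of IGF2R, were not called, and the second sorting receptor gene M6pr was not analysed here.

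Below the receptors, 6 of 12 substrates and adaptors were called (50%, beside 37.3% of all genes). Grb14, an inhibitor of the insulin receptor, had signals of 8.04, 8.68 and 7.91 and a height of 1.87, and the docking protein Gab1 one of 1.53. Irs1, the docking protein of insulin and IGF1 receptors, had signals of 7.05, 7.55 and 8.35, with replicate 5 the highest, and a height of 1.31. A second probe set of Irs1 had signals of 6.64, 6.74 and 6.43 and a height of 0.26, so the probe sets disagreed in both height and order of the arrays. Shc1 (1.03), Grb2 (0.98) and Sh2b1 (0.79) were also called, and Irs4 (-0.52), Dok1 (-0.50) and Sh2b2 (-0.31) were not.

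In the PI3K, Akt and FoxO list 12 of 16 measured genes were called. The regulatory subunit genes Pik3r3 and Pik3r1 had heights of 3.37 and 2.88, the catalytic subunit gene Pik3ca one of 1.61, Akt2 one of 2.68, and the kinase genes Gsk3a and Gsk3b heights of 2.56 and 2.21. Foxo4 (-0.42), Phlpp2 (-0.27) and Phlpp1 (0.33) were not called. The list's count was 10, 11 and 14 without replicates 2, 4 and 5, beside 30.3%, 32.1% and 39.2% of all genes. At the 99th percentile level it was 6, beside 16.6%. Of 10 mTOR genes 7 were called, led by Rheb, the GTPase that activates mTOR, at 3.71, with Mtor itself at 0.98. Mlst8 (-0.40), Rptor (0.17) and Tsc1 (0.36) were not. The mTOR count was 5, 5 and 8 without replicates 2, 4 and 5, beside the same shares of all genes. At the 99th percentile level it was 1 of 10, beside 16.6%. All 5 measured Ras and MAP kinase genes of 10 listed were called, with heights from 0.49 for Map2k1 to 2.24 for Nras. Map2k1 was not called when replicate 2 or replicate 4 was left out (limma adjusted p = 0.136 and 0.0896), which made the count 4 of 5 in either case.

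The growth hormone axis, which drives Igf1 in other tissues, was called in 5 of 8 measured cases (62.5%, beside 37.3% of all genes). Ghr, the growth hormone receptor, had signals of 9.71, 9.25 and 9.33 and a height of 3.09 ± 0.26 (limma adjusted p = 2.2e-05), and its kinase Jak2 had a height of 1.15. The transcription factors Stat5b and Stat5a had heights of 0.52 and 0.50 and Socs3 one of 0.45. These 3 genes were not called without replicate 2 (limma adjusted p = 0.175, 0.168 and 0.127) or without replicate 4 (limma adjusted p = 0.0759, 0.096 and 0.113). The list's count was 2 of 8 in either case, beside 30.3% and 32.1% of all genes. At the 99th percentile level it was 1 of 8, beside 16.6%. A second probe set of Socs3 had signals of 5.91, 5.91 and 5.74 and a height of -0.49, under the level, so the probe sets of Socs3 disagreed. With the mean of the probe sets the list's count was 4. Socs2 (0.01), Socs1 (0.02) and Cish (0.04), inhibitors of cytokine receptor signalling, had heights close to 0. The reported probe set of Socs2 had signals of 6.44, 6.17 and 6.46. Its second probe set had 6.99, 6.26 and 5.49 and a height of -0.09, so the 2 disagreed in the order of the arrays.

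**Figure D3:**
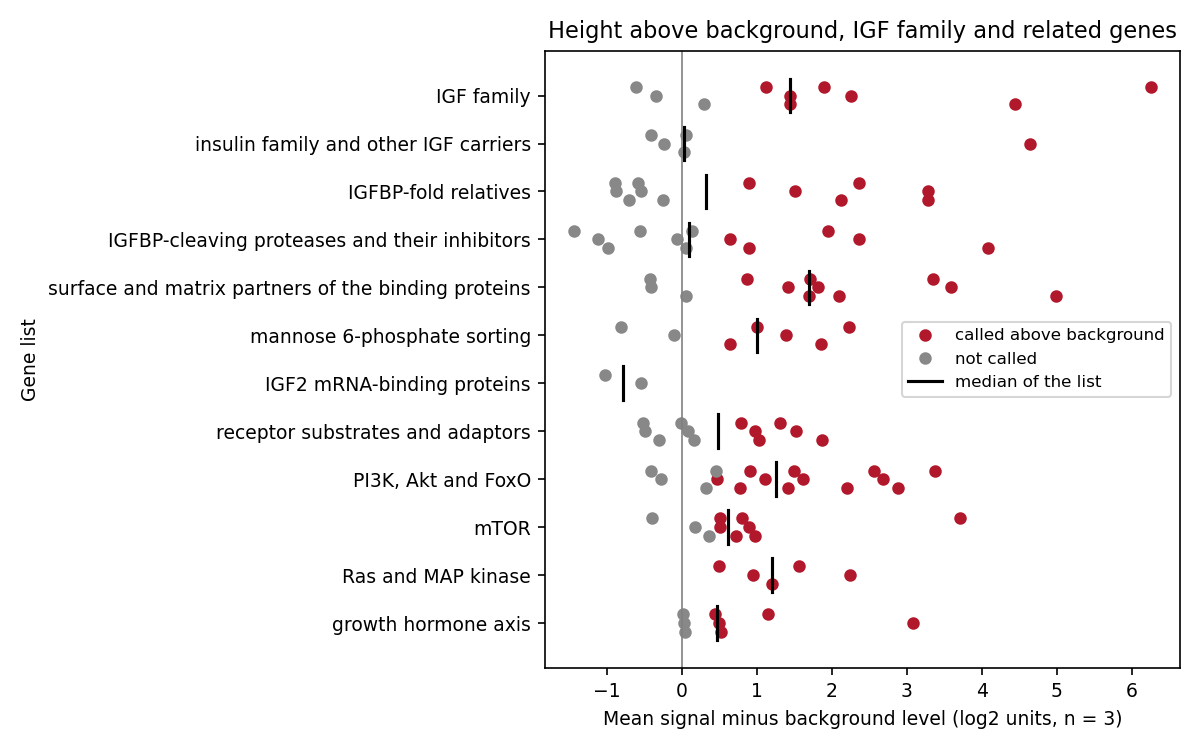
Height above background (mean signal minus level, log2 units, n = 3, horizontal axis) of every measured gene in the IGF family and in 11 lists of related genes (rows), coloured by call, with a bar at the median of each list. Igfbp7 (6.26) is the point furthest to the right, and the lists of partners (9 of 12 called) and of PI3K, Akt and FoxO (12 of 16) lie mostly right of 0.

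**Figure D4:**
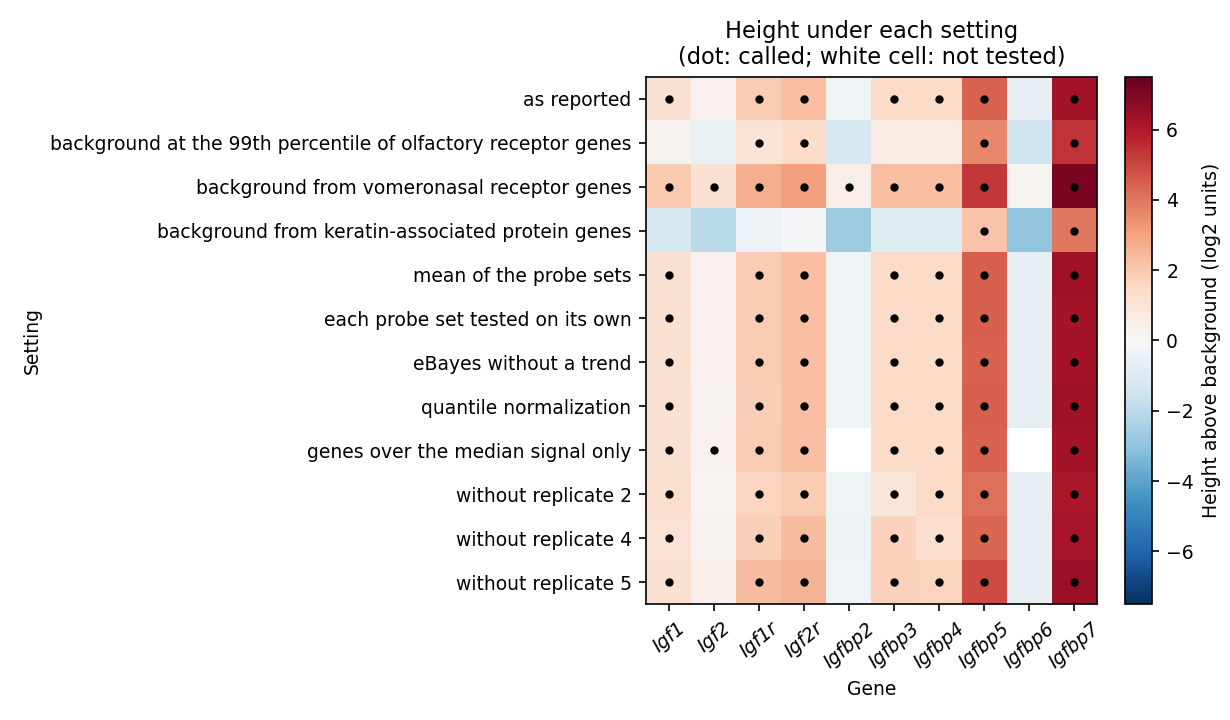
Height of each of the 10 genes (columns) under the reported setting and 11 alternatives (rows), in log2 units by colour, with a dot where the gene was called. Igfbp5 and Igfbp7 carry a dot in every row, and the row with the keratin-associated protein level holds no other dot.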

How the data were processed

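Expression was measured in 3 samples of 1 group on single-colour Affymetrix arrays. The authors deposited a log2 signal for each probe set on each array. Per the submitters' processing notes Affymetrix Expression Console was used. Its version, summary method and normalization were not given in the labels. No source states the log base, which was read from a range of 2.21 to 13.96 and array medians of 6.09, 6.11 and 6.21. The number of arrays limits the precision.

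Of 35557 probe sets, 21789 had 1 symbol in the platform annotation, 1621 several (left out) and 12147 none listed, and 21698 of the 21789 matched RefSeq (GRCm38.p6) by Entrez identifier. For a gene with several probe sets the brightest was taken. Signals minus the background level were fitted in R 4.3.3 by limma 3.58.1 with an intercept alone and trended eBayes, after the script was tested on simulated data. At an unadjusted p under 0.05, 8086 genes passed. Of 167 vomeronasal receptor genes 2 were called, and of 44 keratin-associated protein genes 10. Alternatives changed the level, probe set rule, trend, normalization and filter, and left out each replicate. Text names every member and, per list, up to 6 called genes furthest above background and 3 uncalled furthest below, with exceptions stated. Members and lists were chosen with earlier results of these data known. Python 3.11.15, pandas 2.3.3 and matplotlib 3.10.9 were used.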

Additional observations from a re-analysis of the deposited data

How the results depend on the processing

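The number of members called rested on the background level. It was 7 as reported, 4 with the 99th percentile for the level and 2 with keratin-associated protein genes, and the count of pathway genes, 60 as reported, was then 27 and 3. The other 9 alternatives left both counts within 1.5 times. With a vomeronasal receptor level the counts rose to 9 members and 88 of 100 pathway genes, beside 65.9% of all genes. Leaving out each replicate gave 7 members each time and 48 to 63 pathway genes. With the keratin-associated protein level the heights of Igf1 (-1.20), Igf2 (-2.03), Igf1r (-0.43), Igf2r (-0.068), Igfbp3 (-0.89) and Igfbp4 (-0.89) turned below 0. Igf2 also did at the 99th percentile (-0.57). With a vomeronasal receptor level those of Igfbp2 (0.49, limma adjusted p = 0.0024) and Igfbp6 (0.21, limma adjusted p = 0.0512) turned above 0. These changes follow from the levels themselves, which were 8.41 to 9.15 for keratin-associated protein genes and 5.47 to 5.58 for vomeronasal receptor genes. Filtering on the median signal left Igfbp2 and Igfbp6 untested. No paired analysis was possible because there is 1 group. Signal over background limits what can be said of Igf2, Igfbp2 and Igfbp6.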
